A study of Danio rerio with 19 samples.

Results

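Of the 32520 genes counted in zebrafish tail fin tissue, 42 were readily detected in every uninjured group and fell to at most 0.25 of their uninjured level 24 h after severe tail fin injury in yap1 Crispants, wwtr1 Crispants and WT alike. Levels are CPM, the count of a gene divided by the total count of its library and multiplied by 1000000, and are not scaled to gene length. The 42 genes have a mean of at least 20 CPM in each of the 3 uninjured groups and a ratio of injured to uninjured mean CPM of 0.25 or less in each genotype. The injured mean of yap1 Crispants was taken over replicates 1 to 3. The CPM minimum left 5325 genes, of which 44 met the ratio in all 3 genotypes, and the 2 of these that were among the 100 most abundant genes of the series, ptgdsb.1 and and2, were set aside. The measured injury response chose the 42 genes, so their injured to uninjured ratios are given as a description and were not tested.

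The 19 bulk RNAseq libraries come from WIK strain tail fins at 4 dpf, each made from pooled embryos. The mutant fish were F0 Crispants, which had been injected at the single-cell stage with Cas9 protein and 2 guide RNAs against either yap1 or wwtr1, the gene that encodes Taz, and so carry a mixture of mutations. Yap and Taz are transcriptional coactivators held back by the Hippo pathway. The Crispants were compared with WT fish, and whether the WT fish had been injected was not given in the sources used here. There were 4 libraries of injured and 3 of uninjured yap1 Crispants, 3 of injured and 3 of uninjured wwtr1 Crispants, and 3 of injured and 3 of uninjured WT fish. Injured fish lost part of the fin and notochord at 3 dpf and recovered for 24 h in Danieau's solution. Both injured and uninjured tails were then cut at the pigment gap, so the states differ in the tissue that was sampled. In bulk tissue, fewer cells of a type and less RNA per cell cannot be told apart.

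Several of the 42 genes belong to one metabolic route. Tyrosine is broken down in order by TAT, HPD, HGD, GSTZ1 and FAH to fumarate and acetoacetate, a route best known from mammalian liver. Tetrahydrobiopterin, a cofactor of tyrosine hydroxylase and of nitric oxide synthases, is made from GTP starting with GCH1 and is regenerated by PCBD1 and QDPR. Another group encodes proteins of tendon, cartilage and other collagen-rich tissue, such as the membrane protein tenomodulin (TNMD) and the thrombospondins of the extracellular matrix. Gene symbols are those of the reference table, which writes many zebrafish genes in upper case and gives one symbol to several copies of a gene. The symbol therefore stands for the Ensembl gene given beside it, and 39 of the 42 genes have one.

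The libraries held between 28081131 and 80837847 counts each (median 44618000), and the lowest count of any of the 42 genes in any library was 9. The targeted gene yap1 (ENSDARG00000068401) had 164 to 289 CPM in injured and 142 to 260.2 CPM in uninjured yap1 Crispants, against 234 to 335 and 128 to 272 CPM in injured and uninjured WT. The wwtr1 gene (ENSDARG00000067719) had 0.495 to 1.36 CPM in injured and 0.572 to 1.08 CPM in uninjured wwtr1 Crispants, against 0.526 to 1.35 and 0.604 to 1.13 CPM in WT. Each targeted gene thus overlapped between its own Crispants and WT. In yap1 Crispants wwtr1 had 1.01 to 4.14 CPM injured and 2.17 to 6.45 CPM uninjured, and the uninjured values did not overlap those of WT. Such counts do not tell mutated from intact transcripts. Among the injured yap1 Crispant libraries, replicates 2 and 3 were most alike, with r = 0.983 over log2(CPM + 1) of the 5325 genes. Replicate 1 correlated with replicates 2 and 3 at 0.924 and 0.906, and replicate 4 did so at 0.913 and 0.917. Replicates 1 and 4 correlated at 0.873. Since replicate 4 took no part in the ratio that chose the genes, its results are given on their own. Lens crystallins, which are proteins of the eye lens, were high in it. The 58 genes with a crystallin symbol summed to 359.7 CPM in injured yap1 Crispant replicate 4, to 276 and 109 CPM in uninjured WT replicates 1 and 2, to 15.2 CPM in uninjured yap1 Crispant replicate 2 and to 3.00 to 5.72 CPM in the remaining 15 libraries. None of the 42 genes is a crystallin, and the part of lens RNA in their levels was not tested. With those 3 high libraries left out, an alternative added after the data were seen that leaves 1 uninjured WT library, the rule gave 40 genes, of which 39 were among the 42. The genes lost were zfx, hce2l2 and soul5, with ratios in WT of 0.418, 0.304 and 0.277.

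The summed level of the 42 genes was 1341 ± 132 CPM in injured yap1 Crispants (SD, n = 4) and 9195 ± 1196 CPM in uninjured yap1 Crispants (SD, n = 3). In wwtr1 Crispants it was 1187 ± 286 CPM injured and 10031 ± 2752 CPM uninjured, and in WT 983 ± 179.9 CPM injured and 11466 ± 1695 CPM uninjured (SD, n = 3 each). Every injured library was thus far below every uninjured one. The ratio of 0.25 or less was met by 50 of the 5325 genes in yap1 Crispants (0.939%), by 70 in wwtr1 Crispants (1.31%) and by 155 in WT (2.91%), and by all 42 in each, as the choice of genes fixes. For 41 of the 42 genes every injured library lay below every uninjured library, as it did for 236 of the 5325 genes (4.43%), a measure from the same contrast as the choice. The exception was BHMT.

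**Figure D1:**
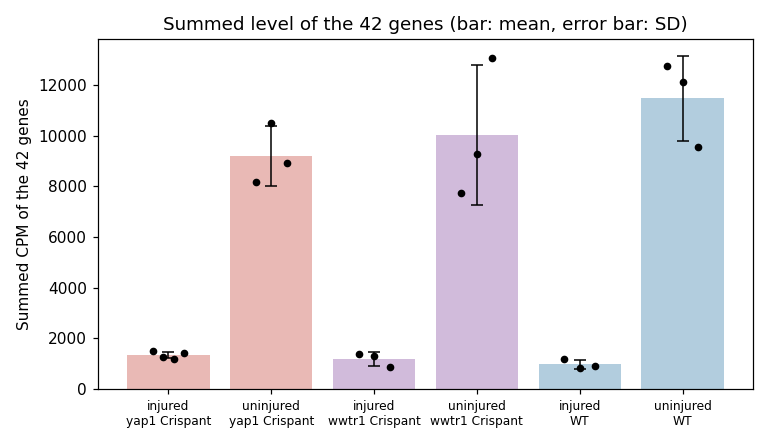
Summed CPM of the 42 genes (linear axis) by genotype and injury state. Points are libraries, bars group means and error bars the SD, and the 10 injured libraries lie between 847 and 1486 CPM, below the 9 uninjured libraries at 7729 to 13078 CPM.

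All 5 steps of tyrosine breakdown were among the 42 genes. TAT (ENSDARG00000069630), tyrosine aminotransferase and the first step of tyrosine breakdown, was lowered most of the 5. It had 3.63, 7.37, 4.45 and 5.45 CPM in injured yap1 Crispants, against 63.5, 199 and 129 CPM in uninjured yap1 Crispants. In wwtr1 Crispants it had 7.76, 9.09 and 1.86 CPM injured, against 163, 161 and 279.9 CPM uninjured, and in WT 9.97, 2.67 and 5.57 CPM injured, against 267, 377 and 185 CPM uninjured. These are ratios of 0.0395 in yap1 Crispants, 0.0310 in wwtr1 Crispants and 0.0219 in WT. The states did not overlap, although uninjured libraries of one genotype also spread widely, as the 3 uninjured yap1 Crispants show.

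The next 4 enzymes act in order after TAT. HPD (ENSDARG00000044935), which makes homogentisate, had a median of 23.5 CPM over the 10 injured libraries (range 13.3 to 36.8), against 449.6 CPM over the 9 uninjured libraries (351 to 873). Its ratios were 0.0600 in yap1 Crispants, 0.0503 in wwtr1 Crispants and 0.0359 in WT. HGD (ENSDARG00000058005), which opens the ring of homogentisate, had a median of 143 CPM over the 10 injured libraries (range 109 to 212), against 1000.1 CPM over the 9 uninjured libraries (674 to 1640.5). It kept more of its level than TAT or HPD, with ratios of 0.178 in yap1 Crispants, 0.131 in wwtr1 Crispants and 0.124 in WT. GSTZ1 (ENSDARG00000027984), the maleylacetoacetate isomerase, had a median of 29.2 CPM over the 10 injured libraries (range 22.1 to 38.2), against 169 CPM over the 9 uninjured libraries (95.4 to 192), with ratios of 0.191 in yap1 Crispants, 0.205 in wwtr1 Crispants and 0.149 in WT. FAH (ENSDARG00000101762), which cleaves fumarylacetoacetate at the last step, had a median of 6.80 CPM over the 10 injured libraries (range 3.78 to 22.4), against 73.9 CPM over the 9 uninjured libraries (56.9 to 143). Its ratio was 0.182 in yap1 Crispants, 0.0875 in wwtr1 Crispants and 0.0693 in WT, and injured yap1 Crispant replicate 1, at 22.4 CPM, was the highest injured library.

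Another HPD copy, hpda (ENSDARG00000018351), lay under the CPM minimum and is not one of the 42. It had 0.224 CPM injured (0 to 1.33), against 8.12 CPM uninjured (6.69 to 24.0), and its ratios were 0.0749 in yap1 Crispants, 0.0148 in wwtr1 Crispants and 0.0192 in WT. With it, all 6 listed genes of the route that were tested were DEGs lowered upon injury in every genotype, at an adjusted p under 0.05 in edgeR's quasi-likelihood test and a log2 fold change under -1. Over all 20979 genes tested, 4.44% were lowered in yap1 Crispants, 4.74% in wwtr1 Crispants and 7.79% in WT, while 5.46%, 6.26% and 8.24% were raised. The list was drawn up after its members had been seen to fall and 5 of its 6 genes were chosen by this contrast, so nothing is read from that count.

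**Figure D2:**
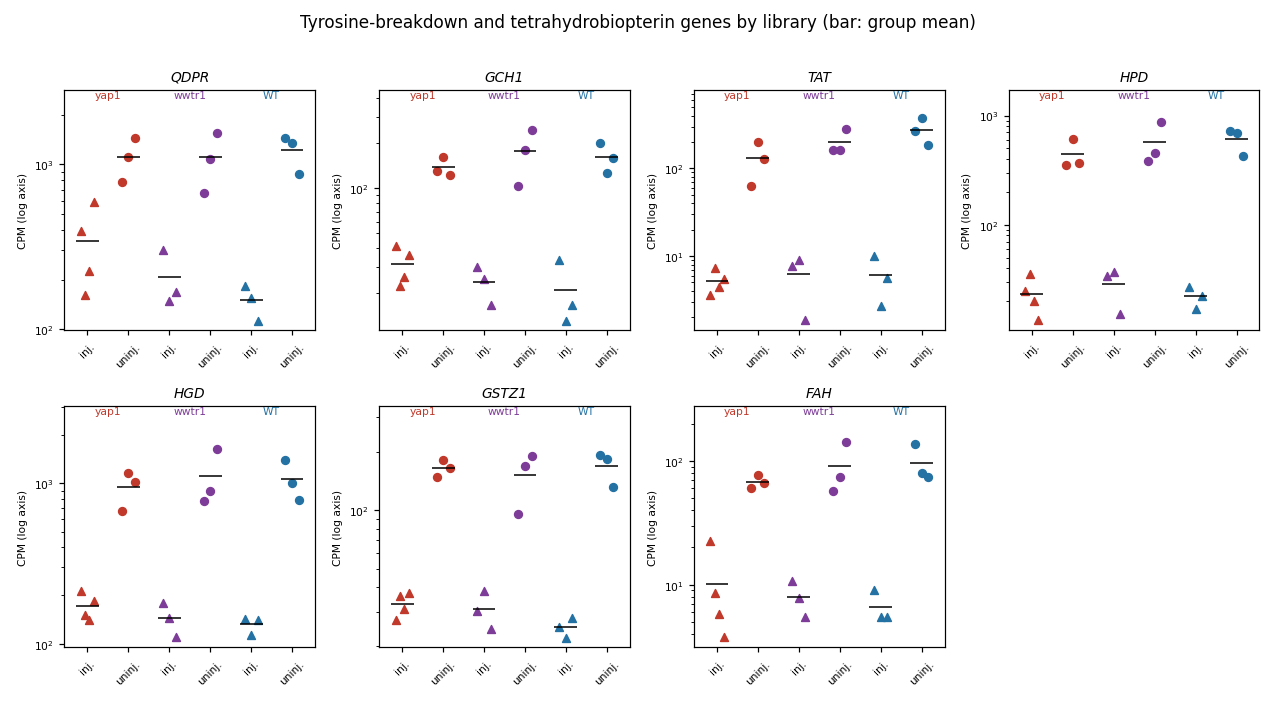
CPM per library (log axis) of QDPR, GCH1, TAT, HPD, HGD, GSTZ1 and FAH. Triangles are injured and circles uninjured libraries, coloured red for yap1 Crispants, purple for wwtr1 Crispants and blue for WT, and the bar is the group mean, and in every panel the triangles lie below the circles.

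The genes of the tetrahydrobiopterin cofactor moved alongside, but not all of them. GCH1 (ENSDARG00000070453), the enzyme that starts its synthesis, had a median of 25.2 CPM over the 10 injured libraries (range 13.1 to 41.4), against 159 CPM over the 9 uninjured libraries (103 to 244). The ratios were 0.216 in yap1 Crispants, 0.135 in wwtr1 Crispants and 0.130 in WT. QDPR (ENSDARG00000040190), the dihydropteridine reductase that regenerates the cofactor, was among the most counted of the 42. It had 393, 161, 224 and 591 CPM in injured yap1 Crispants, against 785, 1099.9 and 1432 CPM in uninjured yap1 Crispants. In wwtr1 Crispants it had 304, 147 and 168 CPM injured, against 671, 1079 and 1549 CPM uninjured. In WT it had 181, 154 and 112 CPM injured, against 1442, 1348 and 875 CPM uninjured. Injured yap1 Crispants differed among themselves for this gene, with replicates 1 and 4 above 2 and 3, and the ratios were 0.235 in yap1 Crispants, 0.188 in wwtr1 Crispants and 0.122 in WT. PCBD1 (ENSDARG00000031981), the carbinolamine dehydratase of the same cycle and also a xanthophore marker, and GCHFR (ENSDARG00000098588), the feedback regulator of GCH1, fell just outside the rule. PCBD1 had ratios of 0.270 in yap1 Crispants, 0.270 in wwtr1 Crispants and 0.184 in WT, and GCHFR 0.260 in yap1 Crispants, 0.249 in wwtr1 Crispants and 0.141 in WT. Both were lowered DEGs in each genotype, so 4 of the 11 tested genes of this list were lowered and none was raised. Over all genes tested, 4.44% were lowered in yap1 Crispants, 4.74% in wwtr1 Crispants and 7.79% in WT. This contrast chose GCH1 and QDPR, and the list was drawn up after the first results, so nothing is read from that count. The other 7 tested genes of the list did not pass the test in any genotype. Among them gch2 (ENSDARG00000099101), the GTP cyclohydrolase of pigment cells, had ratios above 1, at 6.35 in yap1 Crispants, 4.01 in wwtr1 Crispants and 2.23 in WT. The QDPR copy ENSDARG00000037378 had 7.93 CPM injured (4.72 to 9.83), against 7.05 CPM uninjured (5.13 to 11.1), and the copy ENSDARG00000086859 had at most 0.495 CPM in any library. The further copies qdprb.3 and qdprb.4 had at most 0.805 and 0.627 CPM. Copies at such low levels cannot show whether they fell.

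Tyrosine also feeds melanin and catecholamines through other enzymes. None of the 6 tested genes of that list (th2, DDC, TYR, DCT and both TYRP1 copies) was a DEG upon injury in any genotype. Their median log2 fold changes were -0.97 in yap1 Crispants, -1.41 in wwtr1 Crispants and -0.64 in WT. The 7 counted genes of the list summed to 19.7 to 59.4 CPM in injured and 65.8 to 233 CPM in uninjured WT. In both Crispants the summed levels overlapped between the states. The missing calls thus do not show that these genes stayed level. Since the tyrosine route is a liver pathway in mammals, 12 hepatocyte markers were read in the same libraries, from a list also drawn up after the first results. Their summed level was 6.30 to 16.5 CPM in injured and 10.1 to 35.1 CPM in uninjured libraries. The liver fatty acid binding protein fabp10a did not exceed 0.718 CPM in any library, ahsg1 had no count at all, which allows up to 0.107 CPM in the shallowest library at 3 counts, and 7 of the 12 stayed under 1 CPM throughout. Of the 7 markers tested, 1 was lowered and 1 raised upon injury in yap1 Crispants, 3 were lowered in wwtr1 Crispants and 0 changed in WT by the edgeR call. The most counted of the 12 was tfa, with 5.51 CPM injured (2.21 to 9.01), against 14.8 CPM uninjured (6.05 to 21.9). The lowest uninjured values of the 5 tyrosine breakdown genes were 63.5 CPM for TAT, 351 CPM for HPD, 674 CPM for HGD, 95.4 CPM for GSTZ1 and 56.9 CPM for FAH. The part of liver RNA in the levels of these 5 genes was not tested.

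Further genes of the set are linked to amino acid and energy metabolism. KLF15 (ENSDARG00000091127), a transcription factor that in mouse liver activates amino acid breakdown genes, had a median of 6.08 CPM over the 10 injured libraries (range 3.23 to 15.4), against 58.4 CPM over the 9 uninjured libraries (33.6 to 86.1). TTC36 (ENSDARG00000011693), whose loss in mice disturbs tyrosine breakdown through HPD, had a median of 22.1 CPM over the 10 injured libraries (range 13.2 to 36.4), against 139 CPM over the 9 uninjured libraries (109 to 190.2). Its ratios were nearly equal between genotypes, at 0.153 in yap1 Crispants, 0.155 in wwtr1 Crispants and 0.139 in WT. UCP1 (ENSDARG00000023151), a mitochondrial uncoupling protein known for heat production in mammals, was the most strongly lowered of the 42 genes. It had 2.02, 4.94, 2.25 and 5.66 CPM in injured yap1 Crispants, against 96.5, 365 and 169.9 CPM in uninjured yap1 Crispants. The wwtr1 Crispants gave 3.28, 4.21 and 1.30 CPM injured, against 189, 206 and 387 CPM uninjured. WT fins gave 5.52, 2.01 and 4.19 CPM injured, against 336, 368 and 186 CPM uninjured. That makes it 68.5-fold lower upon injury in yap1 Crispants, 89.0-fold lower in wwtr1 Crispants and 75.9-fold lower in WT. It was the single member among the 9 genes of the uncoupling and mitochondrial carrier list, of which 2 were lowered in yap1 Crispants, 2 in wwtr1 Crispants and 3 in WT and none was raised. Over all genes tested, 4.44%, 4.74% and 7.79% were lowered in the same order. This contrast chose UCP1, so nothing is read from that count. PDK2 (ENSDARG00000059054), a kinase that inhibits pyruvate dehydrogenase, had 6.92 CPM injured (4.31 to 13.7), against 71.3 CPM uninjured (40.1 to 173). cndp1 (ENSDARG00000069583), a dipeptidase, had 6.35 CPM injured (4.38 to 15.8), against 79.7 CPM uninjured (52.6 to 145). The heme-binding family gene soul5 (ENSDARG00000075015) had 6.68 CPM injured (0.812 to 9.90), against 44.8 CPM uninjured (21.7 to 101). These 3 genes lay well apart between the states in every genotype. BHMT (ENSDARG00000013430), which remethylates homocysteine with betaine, was less regular. It had 46.6, 28.7, 21.8 and 13.7 CPM in injured yap1 Crispants, against 253, 305 and 339 CPM in uninjured yap1 Crispants. Its level in wwtr1 Crispants was 31.2, 26.2 and 13.5 CPM injured, against 88.8, 191 and 347 CPM uninjured. The WT values were 34.97, 13.0 and 16.6 CPM injured, against 56.9, 31.4 and 195 CPM uninjured. The uninjured WT libraries spanned a wide range, and replicate 2 of that group lay below injured WT replicate 1 and injured yap1 Crispant replicate 1, so this is the 1 gene of the 42 whose states overlap. Its ratios were 0.108 in yap1 Crispants, 0.113 in wwtr1 Crispants and 0.228 in WT. The WT ratio rests on uninjured WT replicate 3, without which BHMT did not meet the limit. The lower uninjured WT libraries, replicates 1 and 2, are those with high lens crystallins. BHMT still met the limit when they and injured yap1 Crispant replicate 4 were left out.

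Of the matrix genes, 8 of the 42 were in a list of tendon and collagen-binding matrix proteins that was drawn up after the first results. Together these 8 had 227 ± 85.3 CPM in injured yap1 Crispants (SD, n = 4) and 1452 ± 326 CPM in uninjured yap1 Crispants (SD, n = 3). In wwtr1 Crispants they had 254 ± 97.2 CPM injured and 1741 ± 313 CPM uninjured, and in WT 138 ± 65.6 CPM injured and 2061 ± 238 CPM uninjured (SD, n = 3 each). THBS3 (ENSDARG00000012060), a thrombospondin of the extracellular matrix, had 10.9, 10.0, 6.99 and 4.05 CPM in injured yap1 Crispants, against 124, 182 and 82.3 CPM in uninjured yap1 Crispants. In wwtr1 Crispants it had 10.9, 7.73 and 4.63 CPM injured, against 72.8, 136 and 285 CPM uninjured. In WT it had 6.90, 3.04 and 1.81 CPM injured, against 254, 159.6 and 226 CPM uninjured. The ratio was 0.0717 in yap1 Crispants, 0.0470 in wwtr1 Crispants and 0.0184 in WT, and this gene differed most between genotypes, by 3.91 times between its largest and smallest ratio. TNMD (ENSDARG00000052615), tenomodulin, a membrane protein of tendon cells, had a median of 4.84 CPM over the 10 injured libraries (range 1.83 to 12.6), against 59.7 CPM over the 9 uninjured libraries (41.0 to 111). POSTN (ENSDARG00000043806), the matricellular protein periostin, had a median of 3.31 CPM over the 10 injured libraries (range 0.883 to 6.54), against 72.2 CPM over the 9 uninjured libraries (37.8 to 155). All injured libraries of both genes lay far below the uninjured ones. THBS4 (ENSDARG00000020072), a thrombospondin of tendon and muscle attachments, had a median of 29.0 CPM over the 10 injured libraries (range 18.7 to 72.6), against 242 CPM over the 9 uninjured libraries (199 to 513).

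The other 4 matrix genes of this list had larger ratios in both Crispants than in WT, and so had THBS3, POSTN and THBS4. POSTN had ratios of 0.0627 in yap1 Crispants, 0.0686 in wwtr1 Crispants and 0.0225 in WT, and THBS4 0.184, 0.116 and 0.0731. TNMD departed, with 0.139, 0.0644 and 0.0769 in the same order. Over all 5325 genes, 65.5% had a larger ratio than in WT in yap1 Crispants and 66.8% in wwtr1 Crispants. MATN3 (ENSDARG00000069245), matrilin 3 of cartilage matrix, had a median of 77.6 CPM over the 10 injured libraries (range 28.3 to 180.3), against 720.3 CPM over the 9 uninjured libraries (331 to 918), with ratios of 0.188 in yap1 Crispants, 0.165 in wwtr1 Crispants and 0.0590 in WT. chad (ENSDARG00000045071), chondroadherin, a leucine-rich cartilage protein, had the largest ratio of the set. It had 21.2, 50.1, 30.8 and 22.7 CPM in injured yap1 Crispants, against 166, 130.3 and 121 CPM in uninjured yap1 Crispants. The wwtr1 Crispants gave 35.4, 44.6 and 12.9 CPM injured, against 152, 162 and 152 CPM uninjured. WT fins gave 28.4, 9.04 and 8.55 CPM injured, against 182, 209 and 185 CPM uninjured. The ratios were 0.245 in yap1 Crispants, 0.1995 in wwtr1 Crispants and 0.0799 in WT. FMOD (ENSDARG00000044895), the collagen-binding proteoglycan fibromodulin, had ratios of 0.228 in yap1 Crispants, 0.194 in wwtr1 Crispants and 0.0844 in WT, and abi3bpb (ENSDARG00000071095) 0.234 in yap1 Crispants, 0.195 in wwtr1 Crispants and 0.122 in WT. The levels of FMOD were 8.28 CPM injured (3.46 to 23.9), against 62.0 CPM uninjured (38.6 to 113), and those of abi3bpb 38.6 CPM injured (14.1 to 64.5), against 228 CPM uninjured (119 to 413). In each of the 4, WT had the smallest ratio. Muscle markers ran in the same order of genotypes. The median log2 fold change upon injury of the 13 tested fast muscle markers was 0.78 in yap1 Crispants, -0.15 in wwtr1 Crispants and -1.25 in WT, and that of the 4 slow muscle markers 0.93, -0.37 and -1.40. None of these muscle markers was a DEG upon injury in any genotype, and the part of muscle in the matrix ratios was not tested. The order was not particular to muscle. Fin fold mesenchyme markers had medians of -0.49, -0.95 and -1.04 and endothelium markers -0.23, -0.66 and -1.36. Xanthophore and iridophore markers also ran in this order. Keratinocyte markers, at -1.07, -0.85 and -0.21, and mucous cell markers ran the other way, and some other lists followed neither order.

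**Figure D3:**
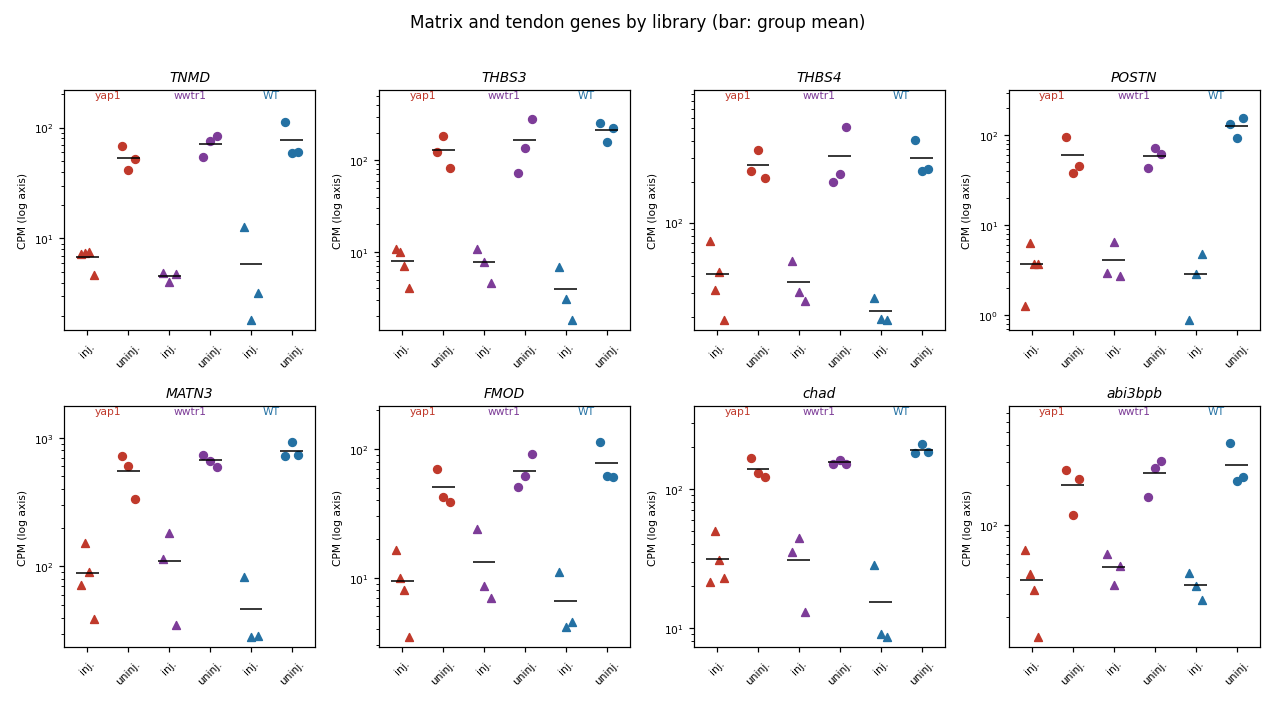
CPM per library (log axis) of TNMD, THBS3, THBS4, POSTN, MATN3, FMOD, chad and abi3bpb. Triangles are injured and circles uninjured libraries, with colours by genotype (red yap1 Crispants, purple wwtr1 Crispants, blue WT) and bars at the group means, and all triangles lie below all circles in each panel.

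Copies of the same gene behaved differently. The THBS3 copy ENSDARG00000077641 was a raised DEG in every genotype, with ratios of 6.55 in yap1 Crispants, 6.09 in wwtr1 Crispants and 6.50 in WT, while the THBS3 copy in the set fell. The POSTN copy ENSDARG00000104267 (ratios of 1.81 in yap1 Crispants, 1.68 in wwtr1 Crispants and 1.36 in WT), the THBS4 copy ENSDARG00000102777 (1.32 in yap1 Crispants, 1.25 in wwtr1 Crispants and 0.690 in WT) and the FMOD copy ENSDARG00000010294 (0.932 in yap1 Crispants, 1.32 in wwtr1 Crispants and 0.666 in WT) were not DEGs in any genotype. The MATN3 copy ENSDARG00000069265 passed the test in WT and in neither Crispant, with ratios of 0.779 in yap1 Crispants, 0.684 in wwtr1 Crispants and 0.294 in WT, and thbs2b (ENSDARG00000073810), under the CPM minimum, was a lowered DEG in wwtr1 Crispants and WT, with ratios of 0.294 in yap1 Crispants, 0.110 in wwtr1 Crispants and 0.0319 in WT. For neither was the difference between genotypes called. Reads shared between such copies could be assigned to either, which the deposited counts do not show. Over the 32 tested genes of this list, 8 of them in the set, 10 were lowered and 2 raised in yap1 Crispants, 13 and 2 in wwtr1 Crispants, and 16 and 2 in WT. The median log2 fold change of the list was -0.60, -0.87 and -1.35 in the same order, beside 0.01, -0.0014 and -0.06 over all genes tested. This contrast chose 8 of the 32 genes, and the list was drawn up after the first results. Nothing is therefore read from its counts and medians.

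Other secreted or matrix genes fell with them. serpinf1 (ENSDARG00000069048), pigment epithelium-derived factor, had a median of 31.9 CPM over the 10 injured libraries (range 13.5 to 94.0), against 318 CPM over the 9 uninjured libraries (106 to 506). MMP11 (ENSDARG00000026325), the matrix metalloproteinase stromelysin 3, had a median of 2.65 CPM over the 10 injured libraries (range 0.268 to 5.92), against 24.6 CPM over the 9 uninjured libraries (15.4 to 46.9), and its lowest value, in injured yap1 Crispant replicate 4, rests on 9 counts. SPON2 (ENSDARG00000002732), a secreted spondin, had 6.73 CPM injured (2.44 to 10.1), against 34.0 CPM uninjured (26.4 to 71.0). Angiopoietin-like angptl2b (ENSDARG00000068369) had 36.9 CPM injured (29.1 to 56.7), against 247 CPM uninjured (168 to 318), and CHST2 (ENSDARG00000058585), a sulfotransferase for carbohydrate chains, 8.44 CPM injured (7.38 to 14.4), against 54.5 CPM uninjured (43.6 to 71.7). These 5 genes had largest ratios between 0.150 and 0.218. cfd (ENSDARG00000039579), complement factor D, which starts the alternative pathway, was the most counted of the 42 in uninjured fins. It had 30.0, 136, 117 and 101 CPM in injured yap1 Crispants, against 977, 1041 and 1289 CPM in uninjured yap1 Crispants. Its level in wwtr1 Crispants was 72.8, 125 and 80.5 CPM injured, against 854, 1182 and 1043 CPM uninjured. The WT values were 86.8, 106 and 118 CPM injured, against 1374, 1917 and 1199.8 CPM uninjured. It was 11.7-fold lower upon injury in yap1 Crispants, 11.1-fold lower in wwtr1 Crispants and 14.5-fold lower in WT. Among the 8 tested genes of the complement list, 1 was lowered and 2 raised in yap1 Crispants, 1 and 2 in wwtr1 Crispants, and 2 and 3 in WT, with cfd among the lowered each time. Over all genes tested, 4.44%, 4.74% and 7.79% were lowered and 5.46%, 6.26% and 8.24% raised in the same order. This contrast chose cfd, so nothing is read from these counts.

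The lipocalin-type prostaglandin D2 synthase gene ptgdsb.2 (ENSDARG00000071626) had 5.05, 17.6, 27.2 and 11.6 CPM in injured yap1 Crispants, against 59.6, 427 and 97.8 CPM in uninjured yap1 Crispants. In wwtr1 Crispants it had 9.54, 18.3 and 19.8 CPM injured, against 298, 137 and 260.1 CPM uninjured. In WT it had 16.3, 13.0 and 23.7 CPM injured, against 235, 423 and 73.6 CPM uninjured. Uninjured libraries of one group varied widely for this gene, and the ratios were 0.0853 in yap1 Crispants, 0.0686 in wwtr1 Crispants and 0.0725 in WT. Its tandem copy ptgdsb.1 (ENSDARG00000027088), which had been set aside as one of the 100 most abundant genes, had 429.7 CPM injured (194 to 817), against 3215 CPM uninjured (884 to 5705). The gene zfx (ENSDARG00000074453), which encodes a zinc finger protein, had 36.8 CPM injured (29.6 to 53.7), against 255 CPM uninjured (83.7 to 447). In RefSeq on assembly GRCz12tu, zfx, ptgdsb.2 and ptgdsb.1 are 3 consecutive genes of chromosome 24, with 57 bp between zfx and ptgdsb.2. The counts of zfx followed those of ptgdsb.2 almost exactly, with r = 0.9996 over the CPM of the 19 libraries, which share their scaling. What was left of zfx after subtracting the CPM of ptgdsb.2 was 22.6 ± 4.45 CPM in the 10 injured libraries and 21.6 ± 3.70 CPM in the 9 uninjured libraries (SD), and it ranged over 13.8 to 28.6 CPM in all. This remainder showed no decrease comparable to that of the 42 genes. A decrease of zfx therefore cannot be told apart from that of its neighbour in these counts, and whether reads were assigned to both genes was not tested.

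The remaining 11 genes have no role given here beyond their names. The keratin gene krt99 (ENSDARG00000019365) had 17.4 CPM injured (8.48 to 26.4), against 116 CPM uninjured (71.8 to 213), and hce2l2 (ENSDARG00000070011) 3.97 CPM injured (1.74 to 6.88), against 19.8 CPM uninjured (12.6 to 43.5). Of the genes with a provisional name, zgc:136930 (ENSDARG00000055192) had 13.4 CPM injured (6.01 to 18.9), against 277 CPM uninjured (184 to 350.0), and si:dkey-183i3.5 (ENSDARG00000056248) 30.3 CPM injured (9.98 to 76.2), against 365 CPM uninjured (264 to 612). Both were among the 10 most counted of the set in uninjured fins. Lower levels were found for si:ch211-76l23.4 (ENSDARG00000096242), with 5.26 CPM injured (3.13 to 7.95), against 136 CPM uninjured (42.2 to 160.1), and for si:dkey-164f24.2 (ENSDARG00000089418), with 4.54 CPM injured (2.17 to 8.47), against 66.5 CPM uninjured (32.5 to 129). zgc:113307 (ENSDARG00000044894) had 5.67 CPM injured (2.31 to 8.26), against 73.1 CPM uninjured (45.4 to 123), and si:ch211-161c3.6 (ENSDARG00000078781) 5.33 CPM injured (1.04 to 7.60), against 47.4 CPM uninjured (18.7 to 56.4). The 3 genes without a symbol were ENSDARG00000115956, with 3.45 CPM injured (1.28 to 6.27), against 65.4 CPM uninjured (24.4 to 165), ENSDARG00000117319, with 27.8 CPM injured (17.4 to 37.7), against 186 CPM uninjured (139.9 to 275), and ENSDARG00000098631, with 6.20 CPM injured (2.205 to 11.4), against 57.0 CPM uninjured (19.95 to 129.7). None of the injured ranges of these 11 genes reached the uninjured range, as was so for 236 of the 5325 genes (4.43%). The injury contrast chose these 11 genes, so nothing is read from this.

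Ratios ran over a wide range below the limit. In all 3 genotypes together, 12 of the 42 genes had a ratio of 0.1 or less throughout, with UCP1, TAT and zgc:136930 lowest. At the other end, the genes just inside the limit were chad, QDPR and abi3bpb, whose largest ratios were 0.245, 0.235 and 0.234. Just outside lay htra4 at 0.253, the receptor gene KIT at 0.259 and GCHFR at 0.260. By level, hce2l2, MMP11 and ENSDARG00000098631 were closest above the minimum, with 20.6, 24.7 and 26.01 CPM in their lowest uninjured group. The chemokine gene ccl27a, PPFIBP1 and the collagen gene col7a1 missed it with 19.9, 17.6 and 17.4 CPM. No gap separates the set from the next genes.

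The median ratio of the 42 genes was 0.146 in yap1 Crispants, 0.116 in wwtr1 Crispants and 0.0777 in WT, that is 6.84-fold, 8.65-fold and 12.9-fold lower. The ratio was smallest in WT for 31 of the 42 genes and largest in yap1 Crispants for 28. It was larger than in WT for 36 of the 42 in yap1 Crispants and for 32 in wwtr1 Crispants, beside 65.5% and 66.8% of all 5325 genes. The 3 comparisons rest on the rule itself, and both Crispants are set against the same WT libraries. For the counts of smallest and largest ratios no share over all genes was taken. The yap1 Crispant values use injured replicates 1 to 3, and injured replicate 4 alone had a median ratio of 0.0780. With the 3 crystallin-rich libraries left out, the median log2 ratio in WT was -3.36, against -3.69 with all 3 uninjured WT libraries, beside -2.77 in yap1 Crispants and -3.11 in wwtr1 Crispants. CPM also carries a shift of all genes, since the median log2 ratio of the 5325 genes was 0.29 in yap1 Crispants, 0.27 in wwtr1 Crispants and 0.16 in WT. Under TMM scaling these medians were -0.06, -0.06 and 0.0040, and the median log2 ratios of the 42 genes were -3.14, -3.44 and -3.88, in the same order as with CPM. After THBS3, the ratios differed most between genotypes for MATN3, ENSDARG00000098631, chad and POSTN, by 3.19, 3.10, 3.06 and 3.05 times. All 5 had their smallest ratio in WT.

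**Figure D4:**
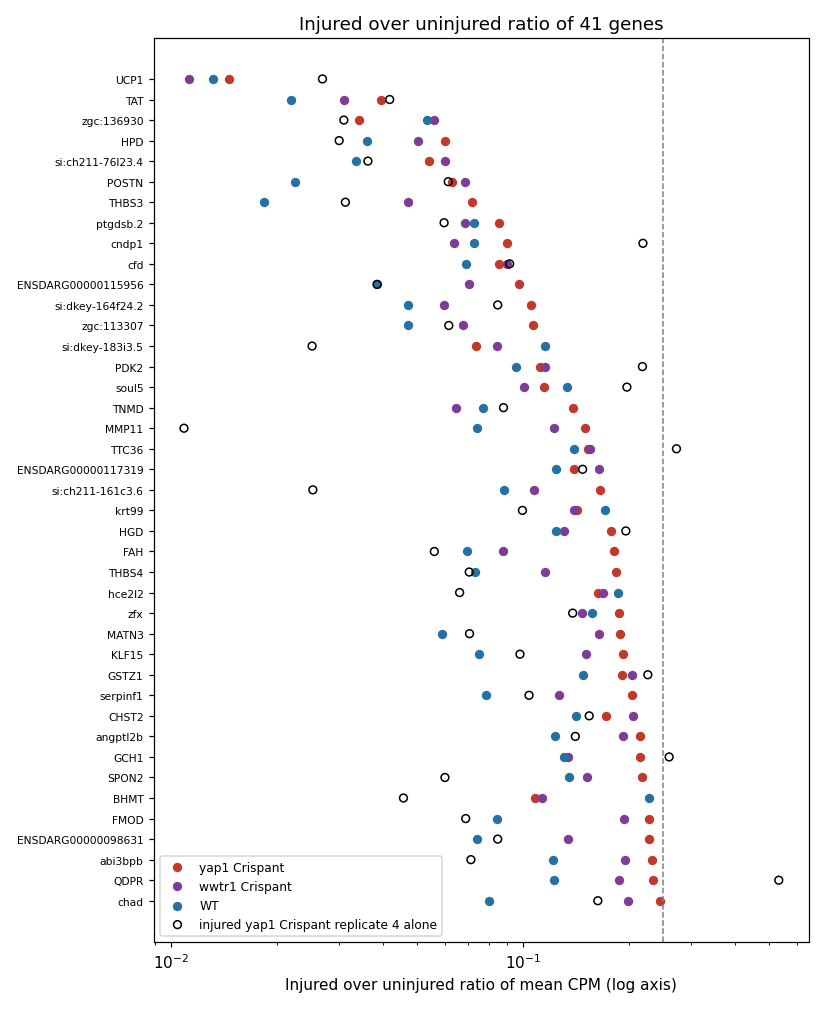
Ratio of injured to uninjured mean CPM (log axis) of 41 of the 42 genes, ordered by their largest ratio, in yap1 Crispants (red, injured replicates 1 to 3), wwtr1 Crispants (purple) and WT (blue), with injured yap1 Crispant replicate 4 as open circles. The dashed line is the limit of 0.25, which replicate 4 exceeds for 3 genes.

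The difference in injury response was tested in one edgeR fit over all 6 groups, as injured minus uninjured in Crispants minus the same in WT. None of the 42 genes was a DEG for yap1 Crispants against WT, and none of the 20979 genes tested was (0%). None was for wwtr1 Crispants against WT either (0% of all genes). At an unadjusted p under 0.05 there were 4 of the 42 and 1711 of all genes for yap1 Crispants, and 0 and 584 for wwtr1 Crispants, while DESeq2 called 133 and 1 genes over all and none of the 42. The median difference over the 42 genes was 0.47 in log2 for yap1 Crispants and 0.26 for wwtr1 Crispants, beside 0.05 and 0.02 over all genes. With a library left out it was 0.38 to 0.79 for yap1 Crispants, the highest without uninjured yap1 Crispant replicate 2. For wwtr1 Crispants it was 0.04 to 0.60, the lowest without injured wwtr1 Crispant replicate 2 and the highest without uninjured wwtr1 Crispant replicate 3, and it also moved by over 1.5 times without uninjured wwtr1 Crispant replicate 1, injured wwtr1 Crispant replicate 3, injured WT replicate 1 or uninjured WT replicate 3. With the 3 crystallin-rich libraries left out it was 0.33 for yap1 Crispants and -0.06 for wwtr1 Crispants, where 24 of the 42 estimates were negative, so no direction is read from it in wwtr1 Crispants. The rule bounds the ratio in every genotype, so such differences could arise only below the limit. Among the genes with an unadjusted p under 0.05 for yap1 Crispants were THBS3, chad and ENSDARG00000098631. For THBS3, the estimate in yap1 Crispants was higher by 1.63 in log2 (SE 0.64), with an adjusted p of 0.521 in edgeR's quasi-likelihood test.

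Injured yap1 Crispant replicate 4 took no part in the ratio that chose the genes, although its comparison libraries did. Over the mean of the 3 uninjured yap1 Crispant libraries, 39 of the 42 genes had a ratio of 0.25 or less in it, as did 196 of the 5325 genes (3.68%). This is 1 library and has no replicate check. Its median ratio over the 42 genes was 0.0780, below the 0.146 of replicates 1 to 3. Its summed level of the 42 genes was not lower, at 1410 CPM, of which QDPR made up 591 CPM. Replicates 1 to 3 summed to 1486, 1275 and 1193 CPM. Over the genes past the CPM minimum, the median log2 ratio was 0.01 in replicate 4 alone and 0.29 for the mean of replicates 1 to 3. The part of this shift of all genes in the gap between the median ratios was not tested. The 3 genes above the limit were QDPR at 0.534, TTC36 at 0.273 and GCH1 at 0.261, and those with the smallest ratio were MMP11 at 0.0109, si:dkey-183i3.5 at 0.0251 and si:ch211-161c3.6 at 0.0253. Its makeup differed in part from the other 3. The slow muscle markers summed to 119 CPM in it and to 462 to 1304 CPM in the others, and leukocyte markers to 377 CPM, against 164 to 191 CPM. Fin fold mesenchyme markers summed to 54646 CPM, against 29091 to 35402 CPM, and notochord markers to 494 CPM, against 688 to 1042 CPM. Its fin fold sum was close to that of the lowest uninjured library, 55039.8 CPM. The part of these cells in the ratios was not tested.

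Genotype contrasts within one state did not themselves choose the genes and were tested over all 20979 genes. The rule did use the same group means, through its minimum uninjured level and its ratio limit in every genotype. It could leave out genes with a much lower uninjured or a much higher injured level in Crispants. This limits the differences from WT that the 42 genes can show in either state. Of the 42, 0 were DEGs in injured yap1 Crispants against injured WT (0% of all genes) and 0 in injured wwtr1 Crispants against injured WT (0% of all genes) in edgeR's quasi-likelihood test. DESeq2 also called none of the 42, with 165 and 19 calls over all genes. At an unadjusted p under 0.05 there were 8 of the 42 and 1731 of all genes for yap1 Crispants, and 3 and 1047 for wwtr1 Crispants. Among the 8 were QDPR, chad, THBS3, THBS4 and serpinf1 with estimates above WT, and si:dkey-183i3.5 and zgc:136930 below. QDPR had the largest estimate, a log2 fold change of 1.26 (SE 0.42, adjusted p = 0.421 in edgeR's test), and chad 1.08 (SE 0.39, adjusted p = 0.464 in the same edgeR test). None of these differences passed the threshold after adjustment over all genes.

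Between uninjured fins, 1 of the 42 genes was a DEG in yap1 Crispants against WT, beside 469 of 20979 genes (2.24%), of which 461 were higher and 8 lower. That gene was ENSDARG00000098631. Its level was 34.6, 19.95 and 23.4 CPM in uninjured yap1 Crispants, against 129.7, 62.5 and 58.2 CPM in uninjured WT, so the groups did not overlap, and uninjured wwtr1 Crispants had 44.6, 68.2 and 57.0 CPM. The log2 fold change in yap1 Crispants was -1.55 (SE 0.36, adjusted p = 0.0266 after Benjamini-Hochberg adjustment in edgeR's quasi-likelihood test). It was no longer called without uninjured WT replicate 1 or 2, without uninjured yap1 Crispant replicate 2 or 3, with only the groups compared in the fit, and with the 3 crystallin-rich libraries left out. Over 26 settings in all it was called in 20, with edgeR or DESeq2 adjusted p-values between 0.00172 and 0.588. The gene with the next smallest adjusted p, ENSDARG00000115956, also had a lower estimate, -1.46 (SE 0.40, adjusted p = 0.0652 in the same edgeR test), with 46.1, 24.4 and 29.4 CPM in uninjured yap1 Crispants, against 165, 65.4 and 70.2 CPM in uninjured WT. BHMT went the other way, with an estimate of 1.80 (SE 0.58, adjusted p = 0.158 in the same edgeR test). Uninjured WT replicates 1 and 2, both crystallin-rich, were low for this gene. DESeq2 called all 3 of these genes.

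In uninjured wwtr1 Crispants against WT, 0 of the 42 genes and none of the genes tested were DEGs in edgeR's test (0%), with 1 of the 42 and 816 of all genes at an unadjusted p under 0.05 and 23 calls by DESeq2, none of them among the 42. Estimates against WT were negative for 33 of the 42 genes in yap1 Crispants and 28 in wwtr1 Crispants, with medians of -0.29 and -0.11, beside -0.05 and -0.0014 over all genes. Between injured fins the medians over the 42 were 0.25 in yap1 Crispants and 0.18 in wwtr1 Crispants, beside 0.0096 and 0.0067 over all genes. These medians rested on single libraries. With a library left out they were -0.42 to -0.12 in uninjured yap1 Crispants, -0.40 to 0.06 in uninjured wwtr1 Crispants, 0.13 to 0.34 in injured yap1 Crispants and -0.013 to 0.34 in injured wwtr1 Crispants. They moved by over 1.5 times in uninjured yap1 Crispants without uninjured WT replicate 1 or uninjured yap1 Crispant replicate 1, in injured yap1 Crispants without injured WT replicate 2 or 3, and in both wwtr1 comparisons without any library compared other than uninjured WT replicate 2 and injured WT replicate 3. The sign turned in uninjured wwtr1 Crispants without their replicate 1 and in injured wwtr1 Crispants without their replicate 2. With the 3 crystallin-rich libraries left out the uninjured medians were -0.0043 in yap1 Crispants and 0.19 in wwtr1 Crispants. Since the genes covary and share their WT libraries, nothing is read from the number of equal signs.

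**Figure D5:**
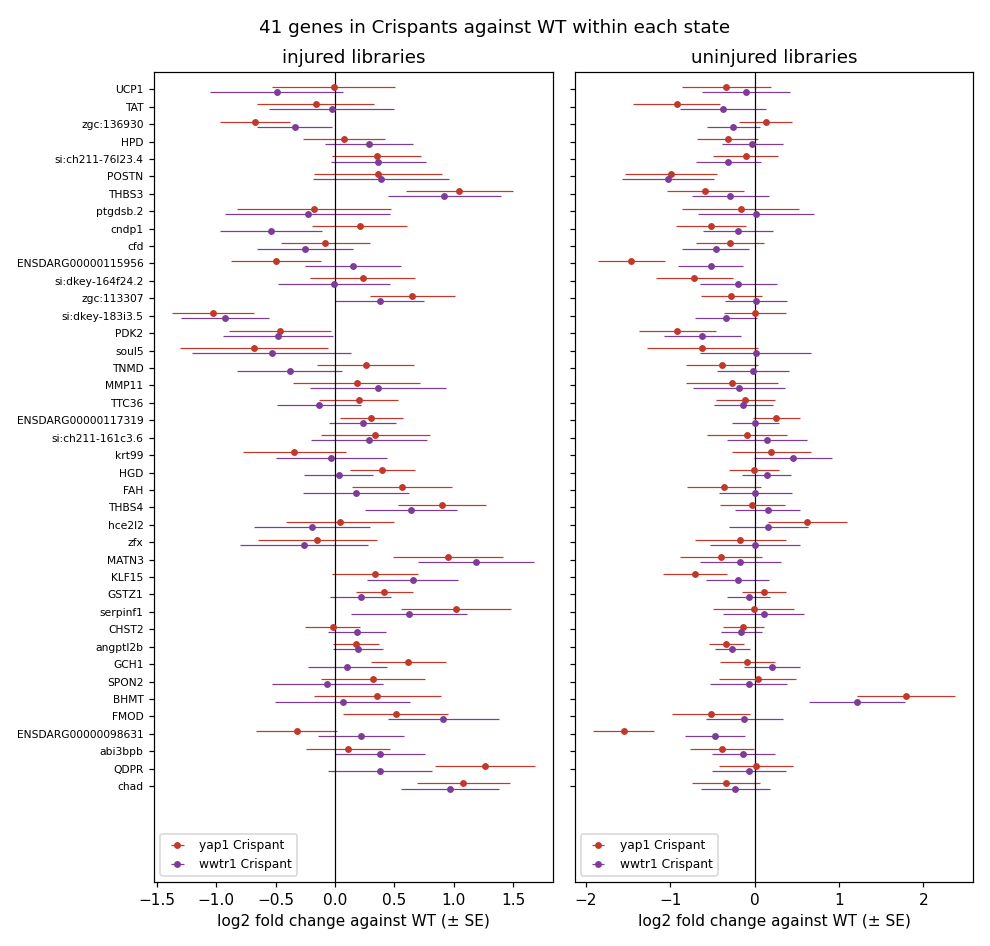
Log2 fold change against WT with its standard error (edgeR fit of all 6 groups) for 41 of the 42 genes, in injured (left) and uninjured (right) fins, with yap1 Crispants in red and wwtr1 Crispants in purple. In uninjured fins ENSDARG00000098631 is the 1 gene called, at -1.55 in yap1 Crispants, and none is called in injured fins.

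With the group means removed, the 42 genes also varied together between libraries of one group, a feature the rule did not use directly. The median pairwise correlation of log2(CPM + 1) over the 19 libraries was 0.283 among the 42 genes and 0.0667 among all 5325. It was 0.617 among the 7 tyrosine and tetrahydrobiopterin genes, 0.477 among the 8 matrix genes and 0.283 between these groups. Among the most alike pairs were FAH with MMP11 (0.938), zfx with ptgdsb.2 (0.934), MATN3 with chad (0.924), ENSDARG00000115956 with ENSDARG00000098631 (0.920) and TAT with UCP1 (0.911). Since zfx followed its neighbour ptgdsb.2 almost exactly in these counts, that pair is not read as covariation of separate genes. These correlations share libraries, depth and tissue sampling, and are a description.

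None of the 42 genes was in a cell type marker list, but marker levels moved with injury too. Not every listed symbol was matched to a gene, from 4 of 9 for lateral line to 5 of 5 for mucous cells. None of these lists was of tendon or cartilage cells. Leukocyte markers summed to 164 to 377 CPM in injured and 15.7 to 48.6 CPM in uninjured libraries, and 11 of their 12 tested genes were raised in every genotype. Fin fold mesenchyme markers summed to 23488 to 54646 CPM injured and 55039.7 to 105034 CPM uninjured, and 4, 4 and 6 of 13 were lowered in yap1 Crispants, wwtr1 Crispants and WT. They include and1 and and2, which encode actinotrichia proteins and make up most of the sum. The gene and2 met both thresholds and is not among the 42 only because the 100 most abundant genes were set aside. Notochord markers summed to 301 to 1042 CPM injured and 1156 to 2176 CPM uninjured, with 4, 3 and 4 of 8 lowered in the same order and 1 raised in yap1 Crispants. Keratinocyte markers summed to 63225 to 111971 CPM injured and 93397 to 140472 CPM uninjured, so that the states overlapped, with 8, 5 and 2 of 15 lowered. The part of these cell types in the decrease of the 42 genes was not tested.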

How the data were processed

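Reads were processed by the authors with Trim Galore, BWA-MEM, SAMtools and HTSeq on GRCz11, and the deposited values are raw counts of reads per gene in each library, with no normalization. Versions and strand use were not given in the sources used here, so counts of overlapping, antisense and near-identical genes are uncertain. Groups came from the sample labels. Symbols from the reference table matched 29201 of 32520 Ensembl IDs. CPM used the column sum, and genes were chosen by mean CPM and ratio as given in the report. The genes and the lists of this report were chosen with earlier results of these data known. Genotype contrasts and injury responses were fitted in R 4.3.3 with edgeR 4.0.16 (20979 genes kept by filterByExpr, TMM, robust quasi-likelihood, 1 fit of 6 groups, Benjamini-Hochberg adjustment), after a test on simulated data. DEGs needed an adjusted p below 0.05 and a change of more than 1 in log2 either way. DESeq2 1.42.0, RLE scaling, no filter, a replicate block, other limits and each library left out were alternatives. The sample labels call the libraries of a group biological replicates but do not say whether they came from separate clutches. The p-values therefore cover the spread between these pools. Floors of 3 counts cover counting error only. Genes are named where they led the set by ratio, level, spread between genotypes, place near a limit, list or call, and the others of the 42 are given by their ranges. The values of 1 of the 42 genes enter the counts and sums and are not reported here by name. Promoter and protein sequences were not used here.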

Additional observations from a re-analysis of the deposited data

Results flagged for a closer look

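Over the 4 injured yap1 Crispant libraries, 1 of the 42 genes had a value far from the other 3 by Dixon's criterion at the 95% level, which chance alone meets in about 1 of 20 groups. It was the tenomodulin gene TNMD, which had 4.71 CPM in replicate 4 and 7.20, 7.47 and 7.62 CPM in replicates 1 to 3. Replicate 4 did not enter the ratio that chose the genes.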

How the results depend on the processing

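The number of genes in the set was 68 with TMM and 69 with RLE scaling in place of column-sum CPM, and 69 with a ratio limit of 0.33, and each of these sets held all 42 genes. The 26 genes gained under TMM include PCBD1 and GCHFR of the cofactor cycle. With all 4 injured yap1 Crispant libraries it was 48, of which 41 were shared, and with each library left out it was 38 to 53, with 33 of the 42 genes found every time. The median log2 ratio of the 42 genes in yap1 Crispants was -3.14 with TMM, -3.15 with RLE scaling and -2.87 with all 4 injured libraries, against -2.77 as reported, and -2.95 to -2.44 with a library left out, the last without uninjured yap1 Crispant replicate 2. In wwtr1 Crispants it was -3.27 to -2.90 and in WT -3.90 to -3.45 with a library left out. The count of the 42 genes at or under the limit in injured yap1 Crispant replicate 4, 39 as reported, was 36 to 40 without each uninjured yap1 Crispant library. Of the 42 genes, 3 were called in uninjured yap1 Crispants against WT by DESeq2 and 0 with only the groups compared or with the 3 crystallin-rich libraries left out, where fewer samples set the spread and, in the last, the single uninjured WT library is assumed to vary like the other groups, and 0 to 3 with a library left out, with 3 without uninjured WT replicate 3, 2 without injured wwtr1 Crispant replicate 3 or injured yap1 Crispant replicate 4, and 0 without uninjured WT replicate 1 or 2 or uninjured yap1 Crispant replicate 2 or 3. Causes of these shifts were not tested. The estimate moved as well, and for ENSDARG00000098631 it ran from -1.75 to -1.07 in log2 over the 26 settings. Over all genes in that comparison, DESeq2 called 769 and the fit of only the groups compared 245, against 469 as reported. In the other 5 genotype comparisons the count stayed at 0 under every alternative run. Replicate numbers are shared between groups, but same-numbered libraries did not regularly deviate together. Their correlations over all genes were -0.241 to 0.411 (median 0.0255) and above 0.1 in 12 of 45 pairs. Replicates 1 held the highest, 0.411 for injured WT with injured yap1 Crispants and 0.198 for injured yap1 with injured wwtr1 Crispants. They also held the lowest, -0.241 for injured yap1 with uninjured wwtr1 Crispants. The fit with a replicate block called the same number of the 42 genes in each comparison, 1 in uninjured yap1 Crispants against WT and 0 elsewhere. With 3 or 4 libraries a group, genotype differences of genes as variable as ptgdsb.2 or BHMT could not be measured closely.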
